A study of Mus musculus with 30 samples.

Results

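The genes described here encode the proteins of the mitochondrial ribosome. They are the 78 protein-coding genes, of 48820 in the table, whose symbol starts with Mrpl (49 genes, named for the large subunit) or Mrps (29 genes, named for the small subunit) followed by a digit. RNA came from hearts of untreated mice with the genotype WT (wild type), in 30 libraries, 3 for each of 10 ages. There were 5 embryonic ages, every second day from E10.5 to E18.5, and 5 after birth, namely postnatal day 1 (P1) and postnatal weeks 1, 2, 4 and 8 (1W, 2W, 4W and 8W). All groups share that genotype, and nothing in the labels ties a library to an animal, so a p-value speaks only of the spread among these libraries, which may be technical.

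The mitochondrial ribosome translates the mRNAs of the mitochondrial genome, which encode membrane-embedded subunits of respiratory complexes I, III and IV and of the ATP synthase. Its rRNAs are transcribed inside the mitochondrion, whereas all of its proteins are encoded in the nucleus, made on cytosolic ribosomes and imported. It holds more protein and less RNA than its bacterial relative, so that many of its proteins have no bacterial counterpart. The heart depends on oxidative metabolism after birth, and mutations of several of these proteins cause human cardiomyopathy. By place in the ribosome, 30 of the 78 genes encode large-subunit proteins with a bacterial counterpart, 21 large-subunit proteins without one, 16 small-subunit proteins with one and 10 small-subunit proteins without one. Despite their symbols, Mrps30 and Mrps18a are counted with the large subunit, in which their proteins sit. The remaining gene, Mrps36, has the symbol of the family, but its protein is a component of the 2-oxoglutarate dehydrogenase complex of the citric acid cycle.

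All 78 genes passed the filter on low counts, and the lowest count of any of them in any library was 102. Library totals ranged from 23164934 to 50519452 counts. Levels are given in CPM, a gene's count relative to its library's total, after edgeR's TMM scaling for library composition, and changes as log2(later/earlier) ± SE from edgeR. A gene rose or fell where the quasi-likelihood test, Benjamini-Hochberg adjusted over 19280 genes, gave an adjusted p below 0.05. Across the 10 ages all 78 genes changed by this test, against 93.6% of all genes, a share close to that background. Neighbouring comparisons share the libraries of 1 age.

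A pair of libraries stood apart for these genes. E10.5 replicate 2 was the highest of its age for 63 of the 78, with a summed level of 3045 CPM against 2138 and 2297 CPM in the others. The ratio of this library to the mean of the other E10.5 libraries had a median of 1.62 over the 25 genes with a transcript under 1000 bases and of 1.24 over the 25 with the longest transcripts, of 2080 to 7300 bases. Cytosolic ribosomal proteins were high there too, at 57198 CPM against 29294 and 30750, as was the short noncoding RNA Rn7sk, at 32231 against 6113 and 5667 CPM without TMM scaling. The second was 2W replicate 2, the highest of its age for 68 of the 78 genes, at 2722 CPM against 2318 and 2238. Cell type markers also differed in E10.5 replicate 2. The summed level of 8 cardiomyocyte markers was lower there, at 20468 CPM against 39744 and 31446 in replicates 1 and 3. That of 7 fibroblast markers was higher, at 566 CPM against 392 and 377. The part of library quality or of cell composition in either library was not tested. Values without E10.5 replicate 2 or 2W replicate 2 are given beside results that move most with them.

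The family as a whole was lowest at E14.5 and highest at 8W on the TMM scale. Its summed level was 2493 CPM ± 484 at E10.5 (SD, n = 3 here and below), 2228 ± 61.8 at E12.5, 1949 ± 62.4 at E14.5, 2520 ± 52.3 at E16.5 and 2384 ± 71.0 at E18.5. In the postnatal groups it was 2252 ± 47.0 (P1), 2186 ± 81.7 (1W), 2426 ± 259 (2W), 3105 ± 60.4 (4W) and 3718 ± 83.0 (8W). The 4W and 8W libraries lay above every other library, the lowest at 4W (3045.3 CPM) only just above E10.5 replicate 2 (3044.5 CPM).

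**Figure D1:**
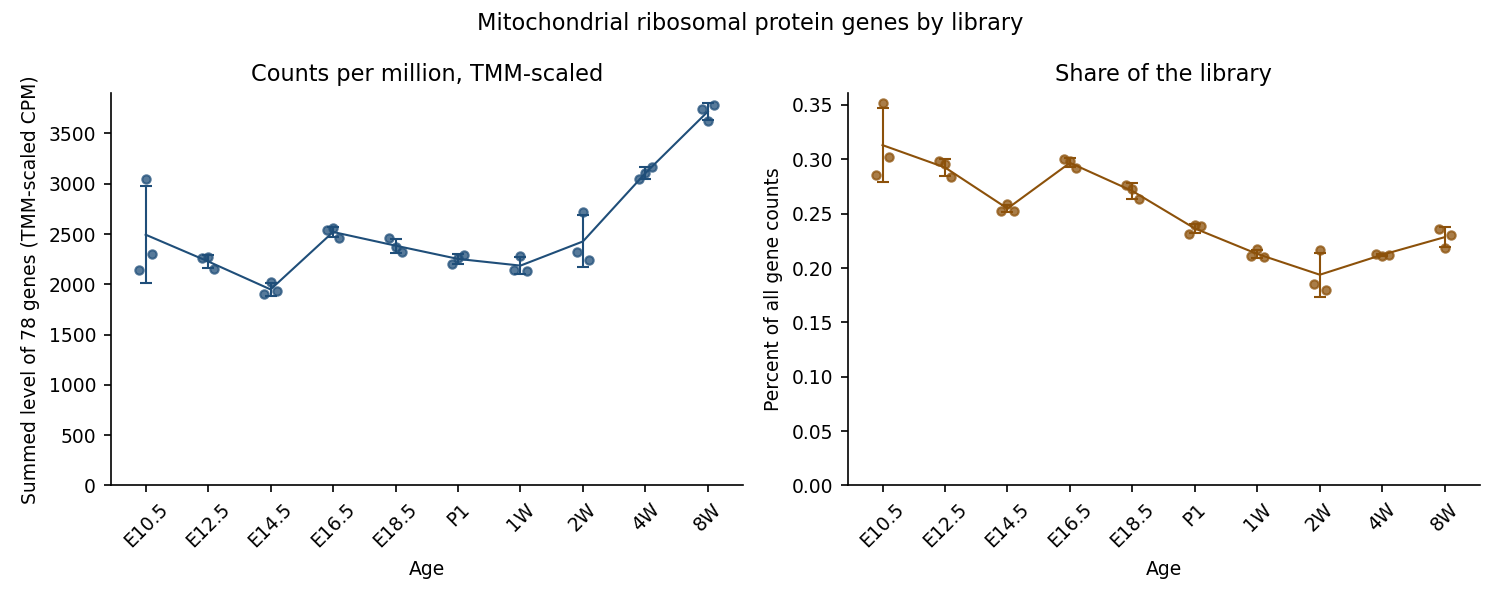
Summed level of the 78 genes in each library by age, in TMM-scaled CPM (left) and as a percentage of all gene counts (right); points are libraries, lines join the means and bars are the SD of 3 libraries. On the left 8W is highest (3718 CPM). On the right E10.5 has the highest mean (0.313%) and 2W the lowest (0.194%). Without E10.5 replicate 2 the E10.5 mean is 0.294%, below that of E16.5 (0.297%).

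The scale matters for this rise. As a share of all gene counts, with no TMM scaling, the family took 0.313% ± 0.034 at E10.5, 0.255% ± 0.0035 in E14.5 hearts, 0.236% ± 0.0044 in P1, 0.194% ± 0.020 in 2W and 0.228% ± 0.0090 in 8W hearts, so that the adult share was below the embryonic one. Without E10.5 replicate 2 the E10.5 share was 0.294%, below that of E16.5 (0.297%). Over the same ages transcripts of the mitochondrial genome went from 5.05% (E10.5) and 3.02% (E14.5) to 6.09% (P1), 15.2% (2W) and 19.0% (8W). Without mitochondrially encoded and globin genes in the total, and without TMM scaling, the family was highest at E10.5, at 3344 CPM, followed by E16.5 (3166) and E12.5 (3109). That order rested on E10.5 replicate 2, without which the E10.5 mean was 3101 CPM, below both. On that measure it stood at 2647 CPM (E14.5) and 2834 (E18.5) before birth, and at 2531 (P1), 2325 (1W), 2289 (2W), 2571 (4W) and 2825 (8W) after it, so that 8W was not the highest age. Compared with TMM, the use of library size alone shifted the all-gene median change (log2) by -0.20 in E18.5 against E14.5, by -0.11 in P1 against E18.5, by -0.39 in 2W against P1 and by -0.37 in 8W against 2W; upper quartile factors moved the last by -0.12. The members' median change in each comparison is therefore given beside that of all genes, and values of single genes and of other lists are on the TMM scale unless another is named.

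The cells that made up the heart changed over the same ages. The summed level of 8 cardiomyocyte markers, among them Myh6 and Tnnt2, was 20468 to 39744 CPM at E10.5, 39208 to 39579 at E14.5, 80096 to 88196 at E18.5, 95094 to 112031 at P1, 175779 to 181618 at 2W and 215230 to 234368 at 8W. The 7 fibroblast markers lay between 377 and 566 CPM at E10.5, between 3034 and 3179 at E14.5, between 4304 and 4464 at E18.5, between 4316 and 5631 at 2W and between 1736 and 1841 at 8W, and 6 of the 7 fell in 8W against 2W. The 6 endothelial markers were at 716 to 949.7 CPM at E10.5, at 1165 to 1183 at E14.5, at 1870 to 1936 at 2W and at 1221 to 1276 at 8W. The 6 macrophage markers were at 3.87 to 4.06 CPM at E10.5, at 72.4 to 75.6 at E14.5, at 138 to 183 at 2W and at 240.1 to 265.7 at 8W. The 7 erythroid markers moved up and down, with a mean of 1657 CPM at E10.5, high means at E16.5 (25585), at E12.5 (10259) and at 4W (7313), and 5095 CPM at P1. In between they were at 4796 CPM in E14.5 and 4032 in E18.5 hearts, and later at 3085 (1W), 2403 (2W) and 2536 (8W). Hepatocyte markers reached at most 38.1 CPM, in a P1 library, and Alb and Fgb were at 0 in all 2W libraries. In these bulk samples fewer cells of a type and less RNA per cell cannot be told apart, and the part of cell composition in the changes below was not tested.

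The genes differed widely in level. Per kilobase of transcript, the mean over the 30 libraries ran from 3.74 CPM for Mrpl17 to 127 for Mrps21, with a median gene at 20.2. The highest were Mrps21, Mrpl33 (102), Mrpl42 (101), Mrpl30 (61.9) and Mrpl23 (57.0), and the lowest Mrpl17, Mrps26 (3.99), Mrpl57 (4.13), Mrpl32 (4.98) and Mrpl47 (5.31). Of these only Mrpl42, Mrpl57 and Mrps26 lack a bacterial counterpart. The transcripts of the 5 highest were 478 to 969 bases long and those of the 5 lowest 2877 to 7300, so that this order also follows the annotated length, which divides the level. The subunits kept their proportion: large-subunit genes held between 70.0% (E12.5) and 72.0% (E10.5) of the family's summed CPM per kilobase at each age, with 71.3% ± 0.016 at 8W.

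**Figure D2:**
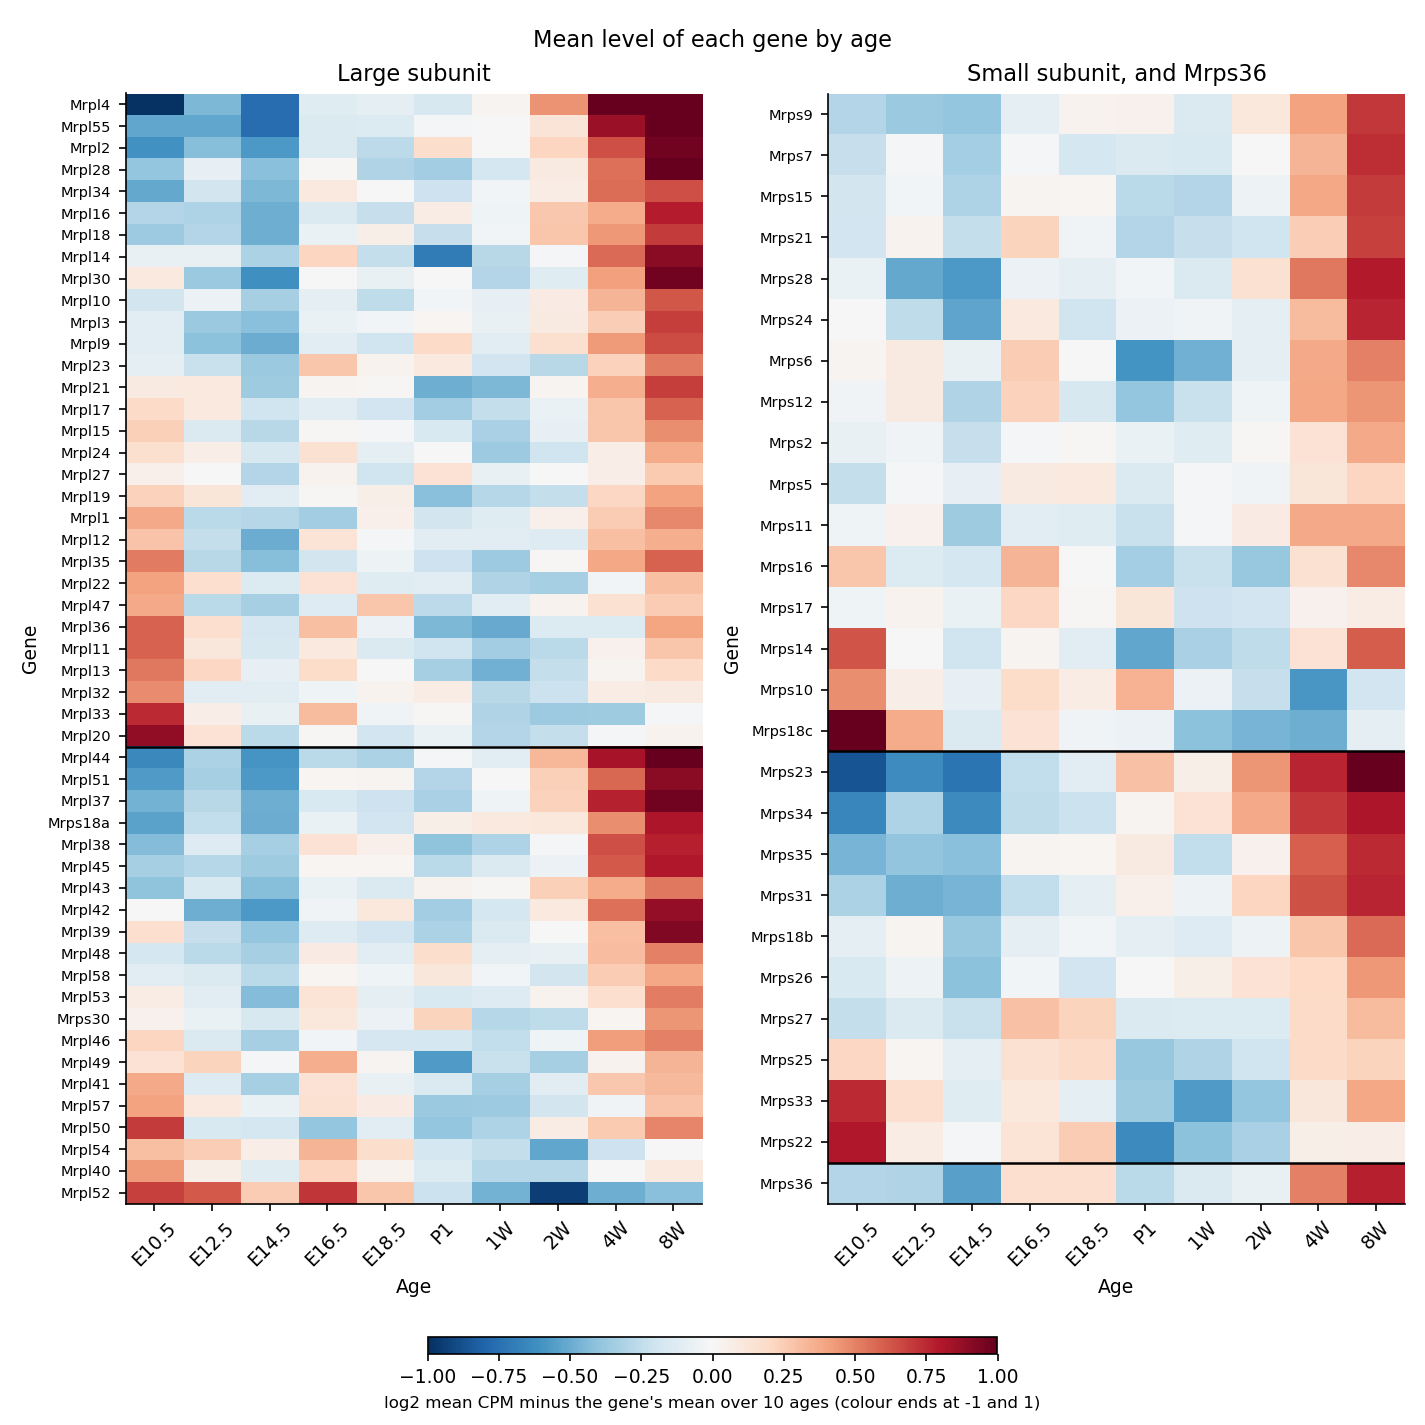
Mean level of each of the 78 genes (rows) at each of the 10 ages (columns), as log2 mean CPM minus the gene's mean over the ages, with colours ending at -1 and 1; black lines separate genes with and without a bacterial counterpart (and Mrps36), and genes are ordered by 8W over E10.5. Of the 78 genes, 56 have their highest mean at 8W and 17 at E10.5.

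The time courses were alike but not the same. The highest mean fell at 8W for 56 genes, at E10.5 for 17, at E16.5 for 4 (Mrpl49, Mrpl52, Mrpl54 and Mrps17) and at 4W for Mrps11. The lowest fell at E14.5 for 33, at P1 for 12, at E10.5 for 11, at 1W for 11, at 2W for 6, at E16.5 and 4W for 2 each and at E12.5 for 1. From E10.5 to 8W the mean was higher for 59 genes and lower for 19, from 0.416-fold for Mrps18c to 4.25-fold for Mrpl4. Without E10.5 replicate 2 the highest mean fell at E10.5 for 11 genes and at 8W for 60, the lowest at E10.5 for 21 and at E14.5 for 24, and 64 genes were higher and 14 lower at 8W than at E10.5. Over the 30 libraries, which share ages and depth, a gene's log2 level had a median Pearson r of 0.78 with the mean of the other members, given as a description. Mrpl30 (0.95), Mrps7, Mrpl15 and Mrpl39 (0.92 each) were most alike to the rest, and Mrps10 (-0.26), Mrpl52 (-0.17), Mrps18c (-0.0027) and Mrpl33 (0.13) least.

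**Figure D3:**
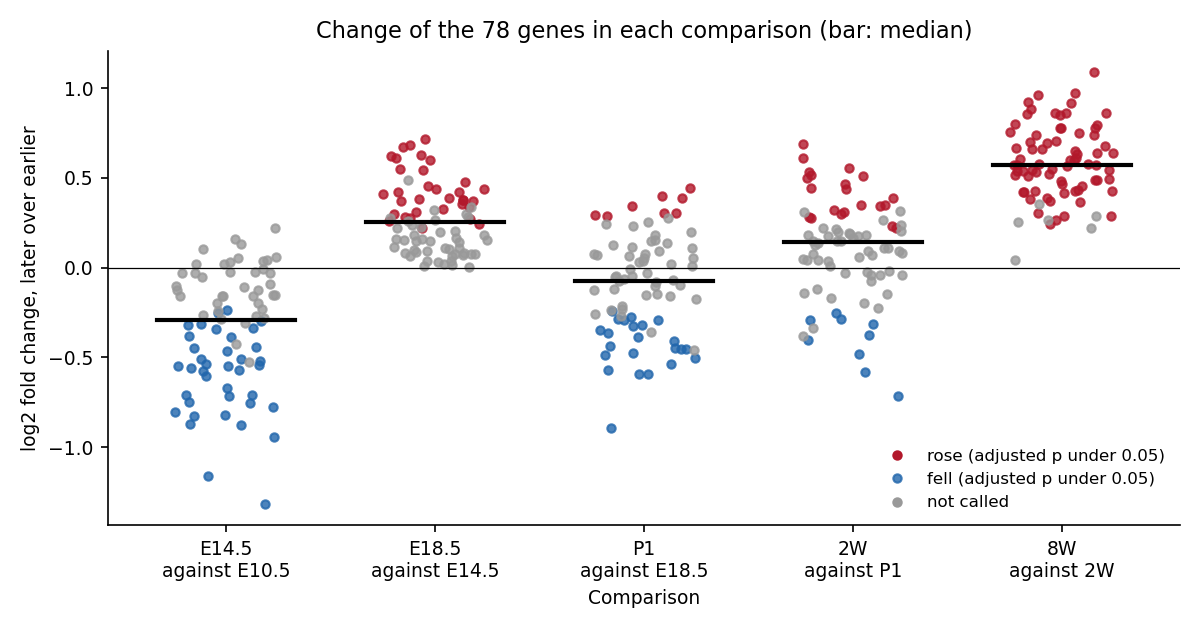
log2 fold change (later over earlier age) of the 78 genes in each of the 5 comparisons; each point is a gene, coloured by its edgeR call, and the bar is the median. In 8W against 2W all points lie above 0 and 72 are called as risen; in E14.5 against E10.5 no gene is called as risen and 38 are called as fallen.

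From E10.5 to E14.5, the days in which the chambers and septa form, 38 of the 78 genes fell and none rose. Over all genes 25.8% fell and 30.5% rose. The members' median was -0.29 against 0.03 for all genes, and 9 of the 78 lay above that all-gene median. At an unadjusted p under 0.05, 47 were lower and 1 was higher, and DESeq2 called 47 lower and none higher. With only the 6 libraries of this comparison the count was smaller, at 27 lower and none higher. The libraries did not overlap for 33 genes, all lower, where 27.4% of all genes had every E14.5 library below every E10.5 library. Falls were counted in 21 of 30 large-subunit genes with a bacterial counterpart, 8 of 21 without one, 5 of 16 small-subunit genes with one and 3 of 10 without one, and in Mrps36, whose call was lost without E10.5 replicate 3 (edgeR adjusted p = 0.18). Whether these shares differ was not tested. In the same comparison all 7 fibroblast markers (median log2 2.34) and all 6 macrophage markers (4.26) rose, as did 7 of 8 cardiomyocyte and 4 of 6 endothelial markers. Of 7 erythroid markers 3 rose and 2 fell. The part of these changes in the members' falls was not tested.

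Mrps18c, a small-subunit protein, fell furthest. Its libraries were at 22.5, 39.3 and 24.4 CPM at E10.5 and at 11.9, 10.5 and 12.2 at E14.5, a log2 change of -1.32 ± 0.14 (edgeR adjusted p = 8.5e-10). The groups did not overlap, and without E10.5 replicate 2 the change was -1.02 ± 0.11 (edgeR adjusted p = 1.3e-09). Mrpl50, which has no bacterial counterpart, was nearly the same in all E10.5 libraries (57.0, 57.7 and 56.1 CPM) and stood at 28.6, 31.7 and 32.6 at E14.5. It fell by 0.88 ± 0.07 on the log2 scale (edgeR adjusted p = 9.5e-13), and by 0.86 without E10.5 replicate 2. Mrpl35, a large-subunit protein of bacterial origin, had 32.0, 43.2 and 32.3 CPM at E10.5 and 18.9, 17.3 and 19.6 at E14.5 (log2 -0.95 ± 0.11, edgeR adjusted p = 1.2e-08, and -0.79 ± 0.11 without E10.5 replicate 2). For Mrpl20, whose bacterial relative acts early in assembly of the large subunit, 1 library decided the size: E10.5 libraries were at 26.7, 72.9 and 26.2 CPM and E14.5 libraries at 16.7, 20.3 and 19.3. Its log2 change of -1.16 ± 0.24 (edgeR adjusted p = 0.00028) became -0.49 ± 0.10 without E10.5 replicate 2 (edgeR adjusted p = 9.7e-05), and with only the 6 libraries of this comparison the edgeR adjusted p was 0.078. The same library was high for Mrpl12, which also binds the mitochondrial RNA polymerase, at 62.4, 135 and 60.4 CPM at E10.5 and 46.7, 56.9 and 46.8 at E14.5 (log2 -0.78 ± 0.19, edgeR adjusted p = 0.0015, and 0.10 with the 6 libraries). Without that library Mrpl12 fell by 0.29 ± 0.09 on the log2 scale (edgeR adjusted p = 0.0089).

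Without E10.5 replicate 2, 30 of the 38 genes still fell and no other did, and the members' median was -0.16 against 0.04 for all genes. In that fit 5 genes, named after their values were seen, rose: Mrps23 (log2 0.37 ± 0.09), Mrpl4 (0.37 ± 0.12), Mrpl14 (0.35 ± 0.14), Mrps34 (0.29 ± 0.11) and Mrpl2 (0.26 ± 0.10), with edgeR adjusted p between 0.00074 and 0.037. For Mrpl14 this turned the direction, since its E10.5 libraries were at 7.43, 16.7 and 5.82 CPM and its E14.5 libraries at 8.11, 9.12 and 7.98. Without E10.5 replicate 1 the count of falls was 52.

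From E14.5 to E18.5 the direction turned: 33 genes rose and none fell, where 17.6% of all genes rose and 15.2% fell. Every one of the 78 lay above the median change of all genes, under each of the 5 scalings, and the members' median was 0.25 against -0.02. A change of scaling moves all genes by nearly the same amount, so the agreement of the 5 was close to fixed in advance. All E18.5 libraries lay above all E14.5 libraries for 49 members, against 25.2% of all genes. At an unadjusted p under 0.05, 43 were higher and none lower, and DESeq2 called 37 higher and none lower. With library size alone 13 rose and none fell.

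The largest rise in this step was that of Mrps36, from 15.1, 15.7 and 15.1 CPM to 26.8, 24.7 and 23.8 (log2 0.71 ± 0.09, edgeR adjusted p = 6.8e-08). Mrpl42, of the large subunit and without a bacterial counterpart, went from 43.7, 40.9 and 45.1 CPM to 67.1, 66.9 and 73.8 (log2 0.68 ± 0.10). Mrpl4, which lines the path of the nascent chain through the large subunit, went from 19.7, 22.8 and 19.5 CPM to 34.3, 34.1 and 30.2 (log2 0.67 ± 0.11). Mrpl55 followed with 0.63 ± 0.10. In all 4 the groups were apart, and the edgeR adjusted p was 1.9e-05 or lower. Of 10 small-subunit genes without a bacterial counterpart 7 rose, among them Mrps23 (log2 0.62 ± 0.11), Mrps27, a pentatricopeptide repeat protein (0.44 ± 0.10), Mrps34 (0.42 ± 0.13) and Mrps25 (0.28 ± 0.09). The call of Mrps34 was lost without E14.5 replicate 1 (edgeR adjusted p = 0.056), E14.5 replicate 3 (0.059) or E18.5 replicate 1 (0.054), and that of Mrps25 without E18.5 replicate 3 (0.062).

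Around birth members changed in both directions, as did genes at large. In P1 against E18.5 8 genes rose and 23 fell, against 19.8% and 19.0% of all genes, and the median was -0.07 against -0.01. With library size alone 3 rose and 35 fell, and 5 rose when E18.5 replicate 3 was left out. The libraries did not overlap for 13 members that were higher at P1 (25.2% of all genes) and for 32 that were lower (25.6%). Mrps22, a small-subunit protein whose loss causes a human mitochondrial disease with cardiomyopathy, fell most: 26.2, 24.7 and 23.8 CPM at E18.5 and 11.8, 14.0 and 14.5 at P1 (log2 -0.89 ± 0.13, edgeR adjusted p = 1.7e-06). Mrpl49 was at 28.1, 28.0 and 28.0 CPM and then at 17.1, 19.5 and 19.0 (log2 -0.59 ± 0.09), Mrps6 fell by 0.59 ± 0.13 and Mrps25 by 0.57 ± 0.09 on the log2 scale. In the other direction Mrpl2, which lies next to the catalytic centre of the large subunit, went from 33.8, 28.8 and 29.8 CPM to 42.2, 41.8 and 41.4 (log2 0.44 ± 0.12, edgeR adjusted p = 0.0036). Mrps23 (0.40 ± 0.11), Mrpl9 (0.39 ± 0.10) and Mrpl27 (0.35 ± 0.11) also rose; the call of Mrpl27 was lost without E18.5 replicate 3 (edgeR adjusted p = 0.10), without P1 replicate 2 (0.074) and with library size alone (0.075). Of the 16 small-subunit genes with a bacterial counterpart 5 fell in this step.

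From P1 to 2W the outcome depended on the scaling. On the TMM scale 21 members rose and 9 fell, against 23.8% and 23.5% of all genes, and the median was 0.14 against -0.03. With library size alone none rose and 43 fell, and with upper quartile factors 13 rose and 12 fell. It also rested on 2W replicate 2, without which 11 rose. Without P1 replicate 2 or without 2W replicate 1, 5 members fell. Relative to the median of all genes the members' median was 0.17 higher under TMM, library size and upper quartile scaling and 0.18 higher under RLE, and 57 of the 78 lay above it (56 with upper quartile factors). This agreement across scalings, too, was close to fixed in advance. Non-overlapping libraries were seen for 21 members that were higher (24.1% of all genes) and 11 that were lower (25.0%).

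The largest rises at 2W were those of Mrpl14, Mrpl4, Mrpl37 and Mrpl51. Mrpl4 went from 31.2, 32.0 and 31.0 CPM to 45.9, 59.8 and 37.9 (log2 0.61 ± 0.11, edgeR adjusted p = 4.2e-05), the middle value being 2W replicate 2. Mrpl37 rose by 0.55 ± 0.11 and Mrpl51 by 0.54 ± 0.09 (log2). Mrpl14 went from 6.06, 6.76 and 6.52 CPM to 10.5, 12.1 and 8.57 (log2 0.69 ± 0.23, edgeR adjusted p = 0.016), and its call was lost without 2W replicate 2 (0.081) or P1 replicate 1 (0.055). With library size alone all 4 stayed above 0 and none passed the test (edgeR adjusted p between 0.084 and 0.21).

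Some members went down in this step. Mrps10, a small-subunit protein of bacterial origin, was at 24.7, 25.4 and 25.8 CPM at P1 and at 17.8, 17.4 and 15.6 at 2W (log2 -0.58 ± 0.12, edgeR adjusted p = 0.00015). Mrps30, found in the large subunit, fell from 38.4, 35.4 and 35.4 CPM to 26.4, 26.8 and 25.1 (log2 -0.48 ± 0.09, edgeR adjusted p = 3.8e-05). Mrpl52 fell by 0.72 ± 0.21 on the log2 scale (edgeR adjusted p = 0.0056), at a lower level: its libraries were at 8.40, 10.2 and 8.86 CPM and then at 6.96, 5.14 and 4.58. The falls of Mrps18c (log2 -0.40 ± 0.15) and Mrpl23 (-0.38 ± 0.13), both with an edgeR adjusted p of 0.022, were each lost when single libraries were left out: P1 replicate 2 or 3 or 2W replicate 1 for Mrps18c, and P1 replicate 2 or 2W replicate 1 or 2 for Mrpl23, with edgeR adjusted p from 0.053 to 0.18.

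Between 2W and 8W, as the heart reaches its adult state, the family rose almost as a block. Of the 78 genes 72 rose and none fell, where 25.8% of all genes rose and 25.1% fell. The median rise was 0.57 against -0.02 for all genes. All 78 lay above the all-gene median, by a median of 0.59. The 5 scalings gave the same, which was close to fixed in advance, since a change of scaling moves all genes nearly alike. In 75 members every 8W library was above every 2W library, against 28.8% of all genes. At an unadjusted p under 0.05, 75 were higher and none lower, and DESeq2 called 73 higher and none lower. On the scale of library size alone, on which the median of all genes fell by 0.40, 32 members rose and 1 fell. On the TMM scale 73 rose without 2W replicate 2, and between 63 and 76 when any 1 library was left out. The 6 that did not pass the test were Mrpl20, Mrpl27, Mrpl33, Mrpl47, Mrps10 and Mrps11, with log2 changes from 0.04 ± 0.12 for Mrps10 to 0.35 ± 0.16 for Mrpl33.

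Mrpl30, a large-subunit protein of bacterial origin, gave the largest rise of this step, from 50.6, 55.6 and 51.8 CPM to 117, 106 and 113 (log2 1.09 ± 0.11, edgeR adjusted p = 1.8e-09). Mrpl55 went from 29.4, 38.4 and 27.4 CPM to 62.3, 58.9 and 65.4 (log2 0.97 ± 0.10). Mrpl28 was at 41.5, 55.5 and 34.1 CPM and then at 84.1, 87.5 and 83.9 (log2 0.96 ± 0.13). Mrpl39, which has no bacterial counterpart, went from 44.0, 46.3 and 41.0 CPM to 81.2, 87.9 and 79.6 (log2 0.92 ± 0.08, edgeR adjusted p = 7.6e-11). In all 4 the 8W libraries lay above the 2W libraries, the high 2W replicate 2 included.

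The rise ran through every part of the ribosome. It took in 26 of 30 large-subunit genes with a bacterial counterpart (median log2 0.56), 21 of 21 without one (0.58), 14 of 16 small-subunit genes with one (0.60) and 10 of 10 without one (0.50), and Mrps36 (0.85 ± 0.09). Among genes mutated in human cardiomyopathy, Mrpl3 rose by 0.60 ± 0.07 on the log2 scale, from 65.5, 80.0 and 67.3 CPM to 109, 110 and 103, and Mrpl44, whose protein resembles RNase III, rose by 0.78 ± 0.10, from 26.7, 31.7 and 21.4 CPM to 46.8, 47.1 and 43.1. Mrps12, of the decoding centre, rose by 0.49 ± 0.13, and Mrps7, whose bacterial relative nucleates the head of the small subunit, by 0.74 ± 0.11. Mrpl45, which lies at the exit of the nascent chain next to the inner membrane, rose by 0.86 ± 0.09. Mrpl58, a peptidyl-tRNA hydrolase built into the large subunit, rose by 0.57 ± 0.11, and Mrpl12 by 0.49 ± 0.19. The edgeR adjusted p of these 7 genes lay between 2.5e-09 and 0.038. The call of Mrpl12 was lost without 2W replicate 1 or 3 or any 1 of the 8W libraries (edgeR adjusted p from 0.053 to 0.13), and with library size alone (0.56).

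The Mrps18 genes are 3 paralogs, of which the protein of Mrps18a sits in the large subunit and those of Mrps18b and Mrps18c in the small one. Mrps18a (ENSMUSG00000023967) lies on the plus strand at chr17:46110986-46128910, Mrps18b (ENSMUSG00000024436) on the minus strand at chr17:35910379-35916389 and Mrps18c (ENSMUSG00000016833) on the plus strand at chr5:100798627-100804471, in GENCODE M21 on GRCm38. Mrps18a was at 16.8, 27.3 and 21.7 CPM at E10.5 and at 55.3, 55.4 and 55.8 at 8W, whereas Mrps18c was at 22.5, 39.3 and 24.4 and then at 11.6, 12.5 and 11.8. Of their summed CPM per kilobase, Mrps18c held 49.7% ± 5.0 (E10.5), 30.2% ± 2.6 (E14.5), 25.0% ± 3.7 (P1) and 16.6% ± 0.74 (8W). Mrps18a held 27.6% ± 0.90 (E10.5), 42.4% ± 2.6 (E14.5), 48.8% ± 2.5 (P1) and 55.5% ± 0.21 (8W), and Mrps18b stayed between 22.7% (E10.5) and 29.2% (E18.5). These shares lie within a library, so the scaling does not enter them; the E10.5 and 8W libraries of Mrps18a and of Mrps18c did not overlap. By step, Mrps18a rose in 8W against 2W (log2 0.71 ± 0.12), Mrps18b rose in E18.5 against E14.5 (0.35 ± 0.12) and in 8W against 2W (0.61 ± 0.13), and Mrps18c rose in 8W against 2W (0.37 ± 0.15) after its falls. The call of Mrps18b in E18.5 against E14.5 was lost without E14.5 replicate 2 or 3 or E18.5 replicate 1 or 2 (edgeR adjusted p from 0.054 to 0.11). The call of Mrps18c in 8W against 2W was lost without 2W replicate 1 or any 1 of the 8W libraries (edgeR adjusted p from 0.058 to 0.16), and with library size alone its log2 change was -0.0096.

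**Figure D4:**
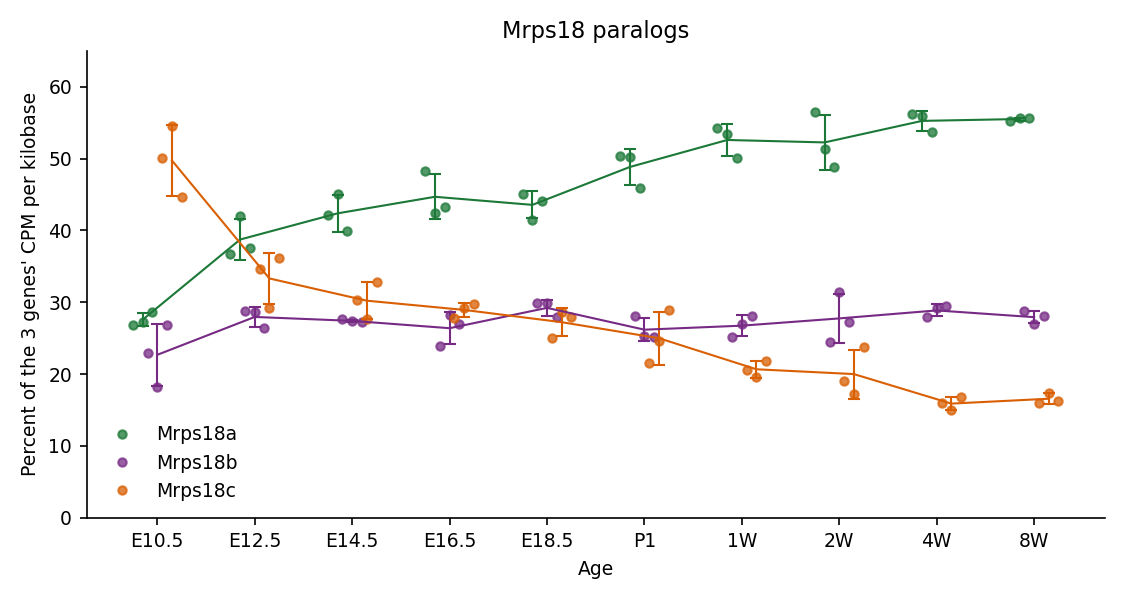
Share of each Mrps18 paralog in the summed CPM per kilobase of the 3 genes, in percent, by age; points are libraries, lines join the means and bars are the SD of 3 libraries. Mrps18c goes from 49.7% at E10.5 to 16.6% at 8W and Mrps18a from 27.6% to 55.5%.

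The nucleus supplies further parts of mitochondrial translation. Of 5 mitoribosomal proteins with other symbols, 4 fell from E10.5 to E14.5, with E10.5 replicate 2 included, and 4 rose from 2W to 8W. Over all genes 25.8% fell in the first of these steps and 25.8% rose in the second. The median log2 change of the 5 was -0.64 and then 0.71, against 0.03 and -0.02 for all genes. Dap3, a GTP-binding small-subunit protein, went from 39.9 CPM at E14.5 to 91.7 at 8W and rose by 0.93 in 8W against 2W (log2), whereas Chchd1, at 51.2 CPM ± 40.4 at E10.5 and 24.1 ± 1.80 at 8W, was the one not called in that step (edgeR adjusted p = 0.071). Of 25 genes for ribosome assembly and rRNA modification 21 rose and none fell from 2W to 8W (9 and 2 with library size alone, with a median 0.57 above that of all genes), among them Mtg2, a GTPase of large-subunit assembly (log2 1.38), and Nsun4, an rRNA methyltransferase (0.93). From P1 to 2W 9 of them rose and 4 fell (1 and 10 with library size alone), the lowest being Malsu1 (-0.99), a factor of large-subunit assembly that went from 32.2 CPM at E10.5 to 10.4 at 8W.

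Most translation factors and most tRNA synthetases rose in the later postnatal steps on the TMM scale. Of 16 translation factors 11 rose and 1 fell from P1 to 2W, and 14 rose and none fell from 2W to 8W. Their median lay above that of all genes by 0.49 and 0.51 (log2) in these steps. Scaled by library size alone, 4 rose and 5 fell from P1 to 2W, and 3 rose and 2 fell from 2W to 8W. Tufm, the elongation factor Tu of mitochondria, went from 98.3 CPM at P1 to 201.5 at 2W and 266.7 at 8W, Gfm1, the elongation factor G, from 148.9 to 218.9 and 341.7, and Taco1, an activator of Co1 translation, from 19.6 to 42.4 and 63.1. Slirp, which binds mitochondrial mRNAs, was at 48.8 CPM ± 20.6 at E10.5, 7.76 at 2W and 12.8 at 8W. Its 8W level was thus below that of E10.5 but above that of 2W. Of 17 mitochondrial tRNA synthetases 10 rose and 1 fell from P1 to 2W, and 13 rose and none fell from 2W to 8W; the one that fell was Ears2, from 35.5 to 10.2 CPM (log2 -1.80). Their median lay above that of all genes by 0.33 and 0.55. From P1 to 2W 6 rose and 2 fell without 2W replicate 2, and with library size alone 4 rose and 7 fell in that step and 7 rose and 1 fell from 2W to 8W. Cars2 went from 12.4 CPM at P1 to 24.5 at 2W and 52.0 at 8W. Among 4 genes of mitochondrial transcription, all rose from 2W to 8W on the TMM scale. Their log2 changes ran from 0.21 to 0.87, with a median of 0.57 against -0.02 for all genes. The lowest of them was smaller than the shift of -0.37 that library size alone gave the all-gene median. Polrmt, the RNA polymerase, was at 20.9 CPM (P1), 34.8 (2W) and 45.8 (8W), and Tfam, which packages the genome, at 22.7, 28.2 and 32.7. The 8W against 2W call of Polrmt was lost without 2W replicate 3 (edgeR adjusted p = 0.12), and that of Tfam without 2W replicate 1, 8W replicate 1 or 8W replicate 2 (0.075 to 0.20).

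The mRNAs that this ribosome translates are those of the mitochondrial genome. The 13 mRNAs summed to 9984 CPM ± 698 (E14.5), 29226 ± 2596 (P1), 99596 ± 3983 (2W) and 161708 ± 1460 (8W). In 2W against P1, where the median of the 78 ribosomal protein genes was 0.14, 12 of the 13 rose, with a median log2 change of 2.09; in 8W against 2W 8 of 13 rose (median 0.77). The rRNA mt-Rnr2, at 24569 CPM at P1 and 76274 at 2W, and mt-Rnr1, at 4224 and 14308, both rose in 2W against P1. These rRNAs were read from poly(A)-selected RNA, and the part of that selection in their level was not tested.

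Beside the family stand the cytosolic ribosomal proteins and the nuclear subunits of complex I. Of 83 tested cytosolic ribosomal protein genes, 76 fell and 1 rose from E10.5 to E14.5, 27 fell and 1 rose from E14.5 to E18.5, 78 fell and 1 rose from P1 to 2W (median -0.82), and 44 rose and 1 fell from 2W to 8W (median 0.37). Their summed level at E10.5 was 57198 CPM in replicate 2, 29294 and 30750 in replicates 1 and 3, and 21564 to 23417 in E14.5 libraries. Without it 61 fell and 1 rose from E10.5 to E14.5, the median going from -0.74 to -0.42, and 68 fell from E14.5 to E18.5. On the scale of library size alone 73 fell from E14.5 to E18.5, and 3 rose and 3 fell from 2W to 8W. Of 37 nuclear genes for complex I, the respiratory enzyme that takes in NADH, 9 rose and 12 fell from E10.5 to E14.5, 28 rose and none fell from E14.5 to E18.5, 21 rose and none fell from P1 to 2W, and 35 rose and none fell from 2W to 8W. The direction of the first of these turned with E10.5 replicate 2, at 4007 CPM for these genes against 2331 and 2425, with 2588 to 2721 at E14.5: without that library 16 rose and 6 fell, and the median went from -0.25 to 0.17. From P1 to 2W 5 rose and 7 fell with library size alone. In mean gene-centred log2 CPM, the mitochondrial ribosomal proteins stood at 0.0068 ± 0.26 (E10.5), -0.31 ± 0.048 (E14.5), -0.15 ± 0.039 (P1) and 0.53 ± 0.027 (8W). Cytosolic ribosomal proteins stood at 0.98 ± 0.52, 0.30 ± 0.073, -0.032 ± 0.11 and -0.44 ± 0.045, and complex I subunits at -0.67 ± 0.46, -0.69 ± 0.045, -0.070 ± 0.078 and 1.02 ± 0.034. Without E10.5 replicate 2 the E10.5 means were -0.14, 0.68 and -0.93 in the same order of families. Differences between the families were not tested.

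**Figure D5:**
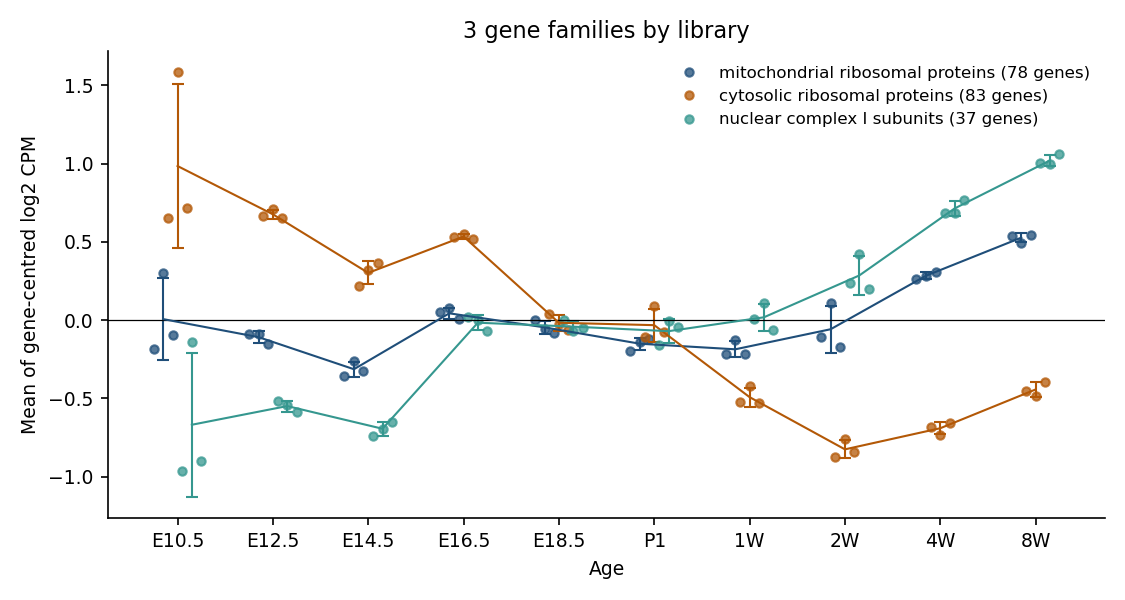
Mean of gene-centred log2 CPM over each family in each library by age; points are libraries, lines join the means and bars are the SD of 3 libraries. The mitochondrial ribosomal proteins end at 0.53 at 8W, the cytosolic ones at -0.44 and complex I subunits at 1.02, and E10.5 replicate 2 is the high point of each family at E10.5.

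The promoters of these genes were compared with others by sequence. RefSeq promoter windows on GRCm38.p6, from 250 bases before to 50 after each gene's start, were found for 69 of the 78; Mrpl4, Mrpl13, Mrpl15, Mrpl19, Mrpl38, Mrpl54, Mrps28, Mrps34 and Mrps35 were not matched. Motifs were searched on both strands, overlaps included. That of nuclear respiratory factor 1 (NRF1) allowed any base at an inner position, so that its matches need not be palindromes. The others were CCGGAAG, the core site of ETS factors such as GABPA, and AAGATGGC, the site of YY1. All of these factors are known to bind promoters of nuclear genes for mitochondrial proteins. The NRF1 motif was found in 18.8% of the members, in 7.47% of protein-coding genes and in 5.19% of all genes with such a window. For the ETS motif these shares were 37.7%, 13.4% and 9.93%, and for the YY1 motif 17.4%, 3.65% and 3.19%. At least 1 of the motifs was in 62.3% of the members, 21.7% of protein-coding genes and 16.4% of all. A match is a description of the letters and not a bound site.

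The bases near the start are shown for 6 members, chosen after their values were seen, that hold a motif there, in a window free of annotated exons, because they differ in which motif they carry and in how they changed. Each run reads 5′ to 3′ on the gene's strand, and the capitals mark the motif, or its reverse complement. Mrpl12 (chr11:120484510-120484609, plus strand) and Mrpl45 (chr11:97315591-97315690, plus strand) hold NRF1 motifs, Mrpl45 at both ends of the window.
Mrpl12: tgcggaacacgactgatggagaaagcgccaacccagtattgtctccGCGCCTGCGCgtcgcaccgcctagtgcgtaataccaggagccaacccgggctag
Mrpl45: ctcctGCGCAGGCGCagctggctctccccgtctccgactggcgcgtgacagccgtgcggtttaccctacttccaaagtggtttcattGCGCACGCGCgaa
The other windows hold ETS motifs. They are those of Mrpl34 (chr8:71464826-71464925, plus strand), Mrpl43 (chr19:45006443-45006542, minus strand, a pair of motifs), Mrpl52 (chr14:54426809-54426908, plus strand) and Mrps22 (chr9:98601680-98601779, minus strand).
Mrpl34: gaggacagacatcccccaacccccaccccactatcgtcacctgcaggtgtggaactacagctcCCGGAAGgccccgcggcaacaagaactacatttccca
Mrpl43: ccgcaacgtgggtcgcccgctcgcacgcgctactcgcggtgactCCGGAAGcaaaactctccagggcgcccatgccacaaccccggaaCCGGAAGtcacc
Mrpl52: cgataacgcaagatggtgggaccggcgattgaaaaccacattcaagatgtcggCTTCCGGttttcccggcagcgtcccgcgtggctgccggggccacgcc
Mrps22: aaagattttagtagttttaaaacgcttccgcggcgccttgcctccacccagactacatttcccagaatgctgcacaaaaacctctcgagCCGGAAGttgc

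The motifs were set beside the changes. In 8W against 2W the median log2 change was 0.66 for the 13 members with the NRF1 motif, 0.57 for the 26 with the ETS motif, 0.63 for the 12 with the YY1 motif and 0.54 for the 26 with none of the 3, and these medians were not tested against each other. Of the genes whose windows are printed, Mrpl45 rose by 0.86 ± 0.09 in that step, Mrpl12 by 0.49 ± 0.19, Mrpl34 by 0.57 ± 0.10, Mrpl43 by 0.29 ± 0.11, Mrps22 by 0.39 ± 0.13 and Mrpl52 by 0.51 ± 0.21 on the log2 scale, with edgeR adjusted p from 2.5e-09 to 0.046. Those of Mrpl12, Mrpl43, Mrps22 and Mrpl52 did not hold in every fit. Besides the losses of Mrpl12 given above, the call was lost without 2W replicate 3, 8W replicate 1 or 8W replicate 3 for Mrpl43 (edgeR adjusted p from 0.063 to 0.19) and without 2W replicate 1 (0.15) or 3 (0.072) for Mrps22. For Mrpl52 it was lost in 22 of the 30 fits that left out 1 library (up to 0.20). None of these 4 passed with library size alone (0.47 to 0.97). From P1 to 2W Mrpl52 fell and Mrpl34 rose (log2 0.28 ± 0.10, lost without 2W replicate 2, edgeR adjusted p = 0.16, or P1 replicate 3, 0.053), and both hold the ETS motif, at position -47 from the start in Mrpl52 and at -37 in Mrpl34.

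The genes are spread over 17 chromosomes, with 11 on chromosome 11, 8 on 17 and 7 on 6. Of the 78, 18 (23.1%) have a protein-coding neighbour on the other strand whose start lies within 1000 bases upstream, against 6.7% of other protein-coding genes. In 8W against 2W all 18 members of these pairs rose, in a step in which 72 of the 78 did. Of the partners 8 rose, 4 fell and 6 did not pass the test, where 25.8% of all genes rose and 25.1% fell. Among these pairs, named after their values were seen, are Mrps12 and Sars2, the mitochondrial seryl-tRNA synthetase (172 bases apart), and Mrps27 and Ptcd2, another protein of mitochondrial RNA metabolism (81 bases). Sars2 rose in 8W against 2W with Mrps12 (log2 0.45 ± 0.13), as Ptcd2 did with Mrps27 (0.72 ± 0.09 and 0.45 ± 0.10). Of the 4 partners that fell, 3 are given here: Mrpl51 rose by 0.66 ± 0.09 while Ncapd2, a condensin subunit of dividing cells whose start is 100 bases away, fell by 0.76 ± 0.16, and Mrpl57 rose by 0.47 ± 0.14 while Ska3, a kinetochore protein 49 bases away, fell by 2.76 ± 0.52 (edgeR adjusted p from 8.6e-08 to 0.0059 for these 8 genes). The calls of Sars2 and Mrpl57 were lost without 2W replicate 3 (edgeR adjusted p = 0.082 and 0.076). The pair of Mrps18c and Helq, a DNA helicase with its start 29 bases away, also split, with a rise of 0.37 ± 0.15 and a fall of 0.56 ± 0.13.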

How the data were processed

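RNA-seq of mouse hearts at 10 ages, 3 libraries each, was analysed from 1 deposited table of estimated counts per gene. mRNA had been pulled from total RNA on poly-T beads, per the labels' protocols. Tools named, without a role, were STAR 2.5.3a and fastp 0.18.0, with builds mm10 and GRCm38, per the submitters' processing notes. The counting tool, its annotation and its strand setting were not given in the sources used here. Of the deposited values 6.94% were not whole (tolerance 1e-06), and counts were rounded. Rows without a gene symbol held 0.225% of the counts. Without a known strand setting, reads of overlapping genes cannot be told apart, and 42 of the 78 gene bodies overlap another annotated gene (26 a protein-coding one), so that those values are uncertain, as are values of genes with near-identical copies, since the table holds 5 pseudogenes with symbols like the members'.

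Counts were fitted with edgeR 4.0.16 (limma 3.58.1, R 4.3.3): filterByExpr, TMM factors, 10 group means over 30 libraries with 20 residual degrees of freedom, robust quasi-likelihood, and Benjamini-Hochberg adjustment over 19280 genes. The SE is the log2 change divided by the root of the F statistic. Log2 CPM used a prior count of 2, and levels per kilobase the length of the principal GENCODE M21 transcript. Python 3.11.15, numpy 2.4.6, pandas 2.3.3 and matplotlib 3.10.9 made summaries and plots, and the fit was tested on simulated data. Library totals of 23164934 to 50519452 counts set the precision.

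Named members are, in each comparison, the 4 largest rises and falls among called members with at least 10 CPM in the higher group and no overlap between libraries, the 5 highest and 5 lowest per kilobase, the 4 most and least like the other members, and a panel of known role. The members and lists were chosen with earlier results of these data known. Alternatives were RLE, library size alone and upper quartile scaling, no filter, a filter at 1 CPM in at least 3 libraries, leaving out mitochondrially encoded and globin genes, DESeq2 1.42.0, a replicate block, each library left out in turn, and a fit to the 6 libraries of a comparison. Counts of the other gene lists without E10.5 replicate 2, without 2W replicate 2 or with library size alone, the ages of the highest and lowest means without E10.5 replicate 2, and calls of genes outside the family with each library left out were added after seeing the data. Protein sequences were not used here.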

Additional observations from a re-analysis of the deposited data

How the results depend on the processing

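With library size alone, 2 members rose in E14.5 against E10.5, 13 rose in E18.5 against E14.5, 3 rose and 35 fell in P1 against E18.5, 0 rose and 43 fell in 2W against P1, and 32 rose and 1 fell in 8W against 2W. In 2W against P1, 13 rose with upper quartile factors and 11 with only the 6 samples of that comparison. The remaining counts stayed within 1.5 times the main ones under the other scalings, filters, DESeq2 and the replicate block. With library size alone the log2 change in 2W against P1 turned for Mrpl10 (-0.28), Mrpl15 (-0.32), Mrpl17 (-0.12), Mrpl2 (-0.36), Mrpl3 (-0.32), Mrpl39 (-0.073), Mrpl44 (-0.050), Mrpl47 (-0.10), Mrpl49 (-0.16), Mrpl55 (-0.24), Mrps12 (-0.047), Mrps18a (-0.35), Mrps18b (-0.35), Mrps2 (-0.31), Mrps21 (-0.30), Mrps23 (-0.24), Mrps25 (-0.21), Mrps26 (-0.26), Mrps27 (-0.39), Mrps34 (-0.042) and Mrps7 (-0.25), and in 8W against 2W for Mrpl32 (-0.074), Mrps10 (-0.34), Mrps18c (-0.0096), Mrps2 (-0.016) and Mrps26 (-0.089). Library size alone by its construction leaves the shift of all genes in each change. Leaving out 1 library at a time, the counts of members that rose and fell ranged over 0 to 5 and 30 to 52 in E14.5 against E10.5, 24 to 43 and 0 to 0 in E18.5 against E14.5, 5 to 11 and 18 to 28 in P1 against E18.5, 11 to 29 and 5 to 12 in 2W against P1, and 63 to 76 and 0 to 0 in 8W against 2W, and all 78 changed across ages each time. The libraries behind counts that moved by over 1.5 times were E10.5 replicate 2 (5 rose in E14.5 against E10.5; 1 rose without E10.5 replicate 3, E14.5 replicate 3 or 2W replicate 2), E18.5 replicate 3 (5 rose in P1 against E18.5), 2W replicate 2 (11 rose in 2W against P1), and P1 replicate 2 and 2W replicate 1 (5 fell without either). The log2 change of Mrpl14 in E14.5 against E10.5 ranged from -0.52 without E10.5 replicate 3 to 0.35 without E10.5 replicate 2. The labels give replicate numbers without saying whether they pair the samples. Deviations of same-numbered libraries from their age means correlated at -0.07 to 0.12 over all genes in the 5 comparisons. Low correlations cannot decide whether such libraries belong together. With the replicate block 40 members fell in E14.5 against E10.5, 38 rose in E18.5 against E14.5, 9 rose and 24 fell in P1 against E18.5, 22 rose and 11 fell in 2W against P1 and 73 rose in 8W against 2W. Causes of these differences, other than the construction named, were not tested. Depth was no limit for detection, since the lowest count of a member was 102.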

Other observations

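Outside the family, the genes whose log2 levels over the 30 libraries were most like the members' mean were D8Ertd738e (Pearson r = 0.95), Ndufs4, a complex I subunit (0.95), Park7, a protein of the oxidative stress response (0.95), Emc6 (0.95), Gpx4, the lipid hydroperoxide peroxidase (0.95), and Ndufa12, also of complex I (0.94). They were drawn from 9062 protein-coding genes whose mean reached 10 CPM, the libraries share ages and depth, and the values are a description. Ndufs4 was at 53.8 CPM at E14.5, 78.6 at 2W and 131 at 8W, and Gpx4 at 147, 262 and 588.

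In E10.5 replicate 2, the excess over the other E10.5 libraries differed with transcript length. The 10 members with the largest ratios, from 1.73 to 2.75, had transcripts of 418 to 1316 bases, among them Mrpl20 (2.75), Mrpl14 (2.52) and Mrps24 (2.44). The 10 with the smallest, from 0.850 to 1.02, had transcripts of 937 to 5000 bases.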
